A study of Mus musculus with 9 samples.

Results

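Fam102a and Fam102b are the paralogous members of a small mouse gene family, and they are the 2 members described here out of 55385 gene rows of the deposited table. They were taken by name, over all 9 libraries, and were chosen by their measured levels with celastrol. Their celastrol values are therefore a description with no test, while the comparison of occlusion with sham surgery, which did not serve to choose them but shares the tMCAO libraries, was tested. Both genes passed the filter on low values that left 16982 genes.

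Total RNA of the ischemic hemisphere was depleted of ribosomal RNA and sequenced in 3 groups of 3 libraries, all from male C57BL/6 mice that were 8 to 10 weeks old. Sham mice had the surgery with no closing of the artery. tMCAO mice (transient middle cerebral artery occlusion, a model of ischemic stroke) had a filament in the artery for 90 min, followed by reperfusion. In the celastrol group the artery was closed for 90 min too, and celastrol, a triterpenoid from a vine used in Chinese medicine, was injected intraperitoneally as reperfusion began (4.5 mg/kg). Celastrol was given to occluded mice, so its effect on mice with sham surgery was not measured. The sources used here do not give the sampling time after reperfusion, a vehicle for the mice without celastrol, or how many animals a library stands for. The p-values thus cover the spread among libraries, which may be technical.

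Fam102a, also called Eeig1, was found as a gene that estrogen switches on in breast cancer cells. Its protein carries a C2-like domain at its N-terminal end, a fold that is also found in Ehbp1 and Ehbp1l1, proteins that link membranes to the actin cytoskeleton. In osteoclast precursors the Eeig1 protein acts downstream of the receptor RANK, beside the adaptor Gab2, the phospholipase Plcg2 and Tec kinases, on the way to the transcription factor Nfatc1. Fam102b has been studied less. These roles were described outside the brain.

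In the table, whose build is mm10, Fam102a (ENSMUSG00000039157) spans chromosome 2 from 32535332 to 32569750 on the plus strand. Fam102b (ENSMUSG00000040339) spans chromosome 3 from 108970997 to 109027607 on the minus strand. GENCODE M21 gives Fam102a-201 and Fam102b-201 11 exons each, with coding sequences of 1176 and 1017 bases. A further coding transcript of Fam102b, Fam102b-202, also has 11 exons, with a longer coding sequence of 1110 bases. Aligned end to end, the coding sequences of Fam102a-201 and Fam102b-201 were identical at 68.6% of the 977 aligned bases. That of Fam102b-202 was not aligned. The longest run of letters shared by any transcript of one gene with any of the other was 16 bases, against reads of 150 bases, which bears on whether reads of one paralog could be counted for the other. It lies in exon 1 of Fam102a-201 and of Fam102b-202, at chr2:32536097-32536112 on the plus strand and chr3:109027305-109027320 on the minus strand. On the minus strand Fam102b-201 begins later, at 109027273, so this stretch is not in that transcript.
Run shared by Fam102a and Fam102b: tgatgaagaagaagaa

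The sequences before the start of each gene are shown because the paralogs differed in their values with celastrol, while the letters searched for did not separate them. They are from RefSeq (GRCm38.p6), 5′ to 3′ on the strand of the gene, and stop before the earliest transcript start in GENCODE M21. Capitals mark the GC box GGGCGG on either strand. The Fam102a stretch is chr2:32535109-32535331 (plus strand, 223 bases) and the Fam102b stretch is chr3:109027608-109027857 (minus strand, 250 bases).
Fam102a: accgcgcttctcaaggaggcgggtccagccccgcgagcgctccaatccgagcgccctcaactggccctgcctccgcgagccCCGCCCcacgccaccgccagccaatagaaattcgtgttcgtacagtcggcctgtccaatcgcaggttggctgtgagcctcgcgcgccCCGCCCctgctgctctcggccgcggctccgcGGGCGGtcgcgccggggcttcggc
Fam102b: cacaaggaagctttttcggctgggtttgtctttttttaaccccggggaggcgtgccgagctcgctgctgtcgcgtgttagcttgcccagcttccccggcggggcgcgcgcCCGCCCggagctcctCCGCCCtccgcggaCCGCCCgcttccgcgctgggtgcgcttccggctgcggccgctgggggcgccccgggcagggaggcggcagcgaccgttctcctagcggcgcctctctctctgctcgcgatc

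Both stretches hold 3 GC boxes. In the full window of 300 bases (250 before and 50 after the RefSeq start), Fam102a held 3 and Fam102b held 4, and 35.7% of 32851 RefSeq promoters of this length held at least 1. Both windows were 73.3% G and C, against a median of 52.7% over all promoters, and they held 44 and 43 CG pairs against a median of 7. Neither window held the estrogen response element (the full palindrome, in 0.0700% of promoters), its shorter form AGGTCA (16.3%), the heat shock element of 3 inverted repeats (0.603%), the antioxidant response element TGACNNNGC (12.4%), the AP-1 motif TGACTCA (5.20%) or the E-box CACGTG (7.15%), each read on both strands. GC boxes were thus the only listed motif found in these windows.

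Libraries held 60392960 to 75158625 estimated counts (median 68726348). Markers of neurons, astrocytes, oligodendrocytes and microglia were all at or above 0.1 CPM (counts scaled to the library total) in every library. Of 6 markers of infiltrating myeloid cells, 1 was. In bulk RNA, fewer cells that hold a transcript and less of it per cell cannot be told apart.

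Fam102b stood lower in the celastrol group than in every other library, and Fam102a did not. Fam102b was at 13.5, 11.97 and 12.3 CPM in celastrol replicates 1, 2 and 3. It was at 39.8, 52.6 and 67.2 CPM in the sham libraries and at 48.4, 37.5 and 85.5 CPM in the tMCAO libraries. The highest celastrol library thus lay below the lowest of the 6 libraries without celastrol, by 2.78 times, and the sham and tMCAO libraries overlapped. The group means were 53.2 ± 13.7 CPM in sham, 57.1 ± 25.2 CPM after tMCAO and 12.6 ± 0.81 CPM with celastrol (SD, n = 3 each).

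**Figure D1:**
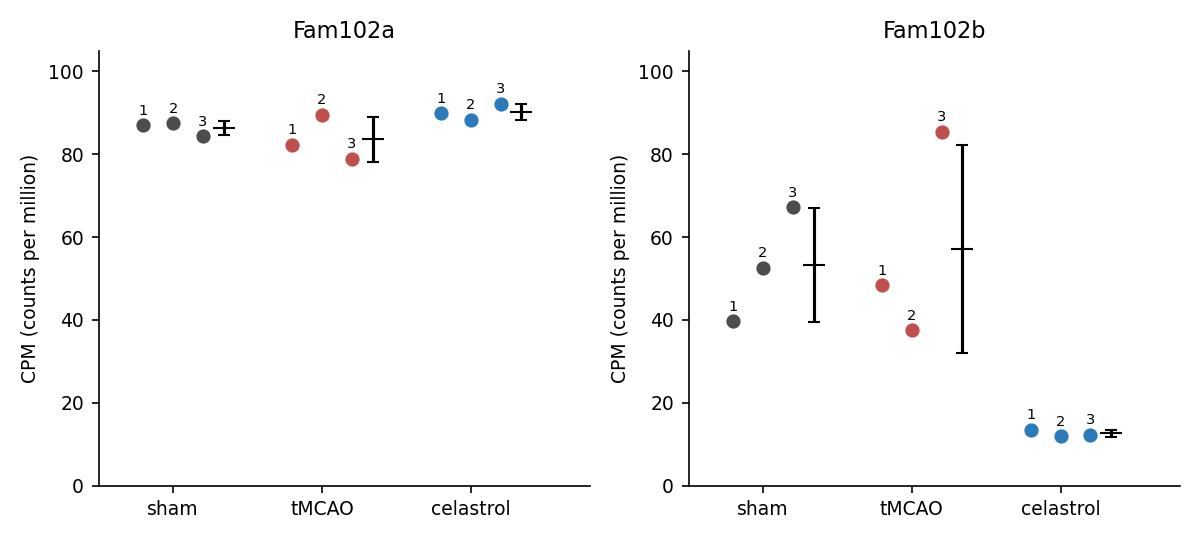
Fam102a and Fam102b in CPM (y axis, from 0) in each library of the 3 groups. Numbers are replicates, and the black bar beside each group is its mean with SD (n = 3). The 3 celastrol libraries lie between 11.97 and 13.5 CPM for Fam102b, below all others, while the 9 Fam102a values lie between 79.0 and 92.2 CPM.

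Fitted with TMM scaling, which sets the libraries to a common level over most genes, the log2 fold change of Fam102b was −2.13 ± 0.30 (SE) with celastrol against tMCAO and −2.14 ± 0.30 (SE) against sham. Against the mean of both groups without celastrol it was −2.14 ± 0.28 (SE), or 4.40-fold lower. These comparisons share libraries and are not separate evidence. Counted from the most negative of 16982 log2 fold changes, Fam102b was at position 31 against tMCAO and at position 32 against sham. Its place is a description, since celastrol values chose the gene. Of all genes tested, 0.654% had all 3 celastrol libraries below all 6 others, and Fam102b is among them by choice. For the same comparisons, edgeR called 0% of genes against tMCAO and 0.00589% of genes, a single one, higher against sham. It was Fcgr4, a receptor for antibodies on myeloid cells, named here after its value was seen (log2 fold change 4.34 ± 0.39, SE, edgeR adjusted p = 0.0323). Against both groups without celastrol it called 0%. At an unadjusted p below 0.05 the shares were 4.11%, 8.51% and 4.38%, and DESeq2 called 12 genes higher and 7 lower against tMCAO, or 0.112% of those tested.

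**Figure D2:**
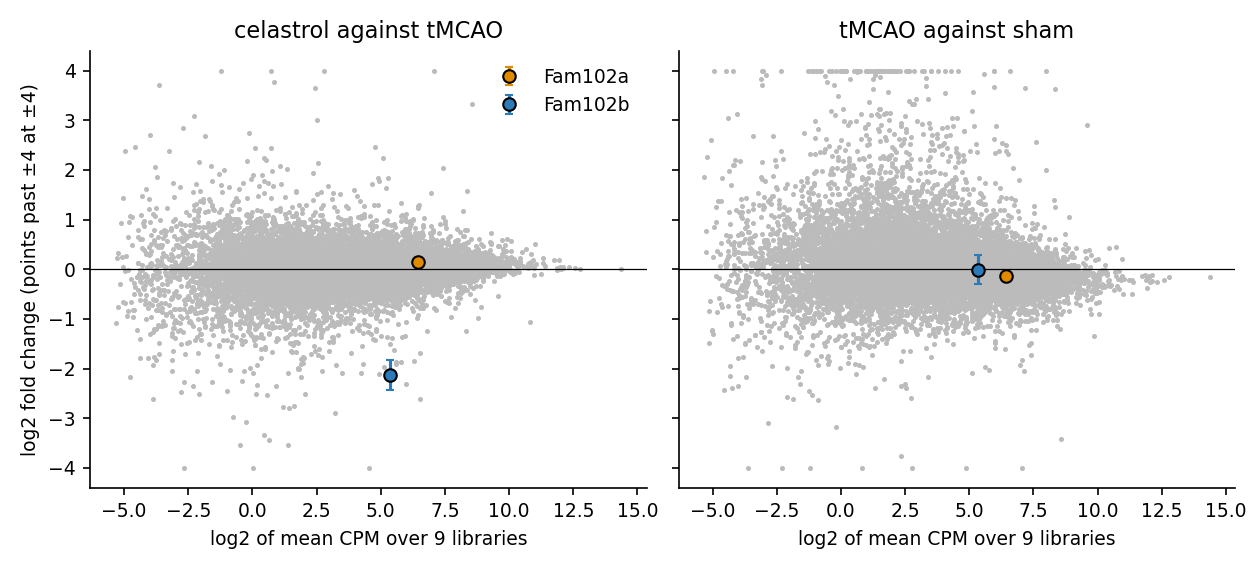
Log2 fold change (y axis) against the log2 of the mean CPM over 9 libraries (x axis) for the 16982 genes tested, grey, with Fam102a in orange and Fam102b in blue (bars are SE). Values past 4 in size are drawn at 4. Fam102b lies at −2.13 with celastrol against tMCAO and at −0.01 for tMCAO against sham, and Fam102a at 0.15 and −0.14.

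The celastrol libraries were also closer to each other for Fam102b than the libraries of the other groups. The coefficient of variation (SD over the mean) was 6.44% with celastrol, 25.8% in sham and 44.0% after tMCAO. Over all genes tested its median was 18.3%, 14.4% and 17.0% in these groups. Fam102b had 805 to 929 counts in the celastrol libraries, for which counting error alone gives a variation of 3.36%. In the libraries without celastrol it had 2659 to 5269 counts, with a counting error under the spread seen, at 1.72% in sham and 1.67% after tMCAO.

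Fam102a was close to level over the series. It was at 87.0, 87.5 and 84.4 CPM in sham, at 82.3, 89.6 and 79.0 CPM after tMCAO and at 90.0, 88.4 and 92.2 CPM with celastrol. From the lowest to the highest of the 9 libraries this is a ratio of 1.17, where Fam102b had a ratio of 7.14. The celastrol libraries overlapped those of tMCAO and lay above those of sham, by 0.875 CPM at the nearest, a place that 9.19% of genes also had. With TMM scaling the log2 fold change of Fam102a was 0.15 ± 0.09 (SE) with celastrol against tMCAO and 0.01 ± 0.09 (SE) against sham, so the higher CPM against sham was not seen once the libraries were scaled. The coefficient of variation was 1.92% in sham, 6.49% after tMCAO and 2.14% with celastrol.

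Per transcript length, Fam102a was the higher of the paralogs in 8 of 9 libraries. In FPKM (fragments scaled to transcript length and library total), Fam102a was at 12.6 ± 0.28 in sham, 12.2 ± 0.73 after tMCAO and 13.1 ± 0.25 with celastrol, and Fam102b at 8.27 ± 2.11, 8.87 ± 3.95 and 1.95 ± 0.12 (SD, n = 3 each). The FPKM of Fam102a was 2.06, 1.56 and 1.18 times that of Fam102b in the sham libraries and 1.60, 2.25 and 0.868 times after tMCAO. With celastrol the ratios were 6.26, 6.95 and 7.05. The tMCAO replicate 3 library, where Fam102b was the higher, had its highest Fam102b level and its lowest Fam102a level. Over the 9 libraries the log2 CPM values of the paralogs had a Pearson r of −0.50, and of −0.65 once each group's mean was taken off, given as a description.

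The comparison of tMCAO with sham asks what occlusion and reperfusion change, and neither gene passed the test. For Fam102b the log2 fold change was −0.01 ± 0.29 (SE), with a 95% interval from −0.67 to 0.65 and an edgeR adjusted p of 0.995 over all genes. For Fam102a it was −0.14 ± 0.09 (SE), with a 95% interval from −0.36 to 0.07 and an edgeR adjusted p of 0.502. In this comparison edgeR called 0% of the genes tested, 14.9% had an unadjusted p below 0.05, and DESeq2 called 557 genes higher and 279 lower, neither paralog among them (DESeq2 adjusted p = 0.991 for Fam102b and 0.401 for Fam102a). The intervals do not show that the levels were alike. For Fam102b the sign rested on single libraries, with −0.40 without tMCAO replicate 3, and 0.22, 0.20 and 0.10 without tMCAO replicate 2, sham replicate 3 and tMCAO replicate 1.

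Markers of cell types were set beside Fam102b, as their summed CPM over lists of 3 to 7 genes. Of 15 lists, that of erythrocytes (4 globin genes and the heme synthesis gene Alas2) also had the sum of all celastrol libraries below all others. Its sum was 97.5, 77.6 and 68.8 CPM with celastrol, 294, 303 and 168 CPM in sham and 248, 108 and 582 CPM after tMCAO, and all 5 markers were detected in every library. Singly, the 4 globin genes had this order, while Alas2, at 1.34, 1.52 and 0.985 CPM with celastrol, overlapped tMCAO replicate 2 at 1.13 CPM. The library with the highest Fam102b value, tMCAO replicate 3, had the highest erythrocyte sum, and tMCAO replicate 2 had the lowest of both among the libraries without celastrol. In sham the library with the lowest erythrocyte sum, replicate 3, had the highest Fam102b value. The part of blood cells in the Fam102b values was not tested.

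The summed level of striatal projection neuron markers (7 genes, among them the dopamine receptors Drd1 and Drd2 and the opioid precursor Penk) ran in the order of Fam102b within the sham and within the tMCAO libraries. It was 158, 378 and 931 CPM in sham, 385, 220 and 668 CPM after tMCAO and 153, 261 and 167 CPM with celastrol. With celastrol the order of the sum was the reverse of that of Fam102b. Taken singly, 0 of 7 genes had the order of Fam102b with celastrol, all 7 had it in sham and 5 of 7 after tMCAO. The exceptions were Drd2, at 3.86, 5.165 and 24.9 CPM, and the dopamine signalling phosphoprotein gene Ppp1r1b, at 234, 131 and 176 CPM, in tMCAO replicates 1, 2 and 3. Of the 15 lists, 5 shared the order of Fam102b in at least 2 groups, and with 3 libraries a group such an order is weakly informative. Beside the striatal list these were astrocytes, infiltrating myeloid cells, endothelium, and pericytes and smooth muscle. Sham replicate 1 and tMCAO replicate 2 had striatal sums within the range of the celastrol libraries. Their Fam102b values were 39.8 and 37.5 CPM. The part of striatal neurons in the Fam102b values was not tested.

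**Figure D3:**
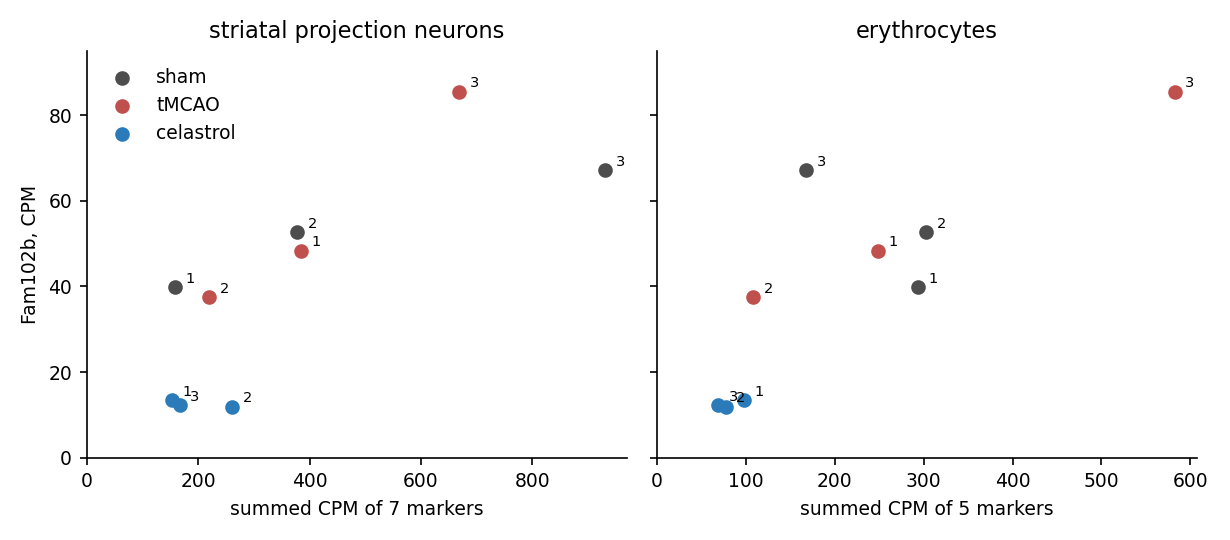
Fam102b in CPM (y axis) against the summed CPM of 7 striatal projection neuron markers (left) and 5 erythrocyte markers (right), 1 point per library, with replicate numbers. The celastrol libraries lie at 153 to 261 CPM on the striatal axis, where sham replicate 1 and tMCAO replicate 2 also lie, and at 68.8 to 97.5 CPM on the erythrocyte axis, below all others.

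Of the 15 lists, choroid plexus markers had the widest ratio between libraries, from 6.97 CPM in celastrol replicate 2 to 1881 CPM in celastrol replicate 1, while Fam102b was at 11.97 and 13.5 CPM there. Excitatory neuron markers summed to 5112 CPM in celastrol replicate 2 and to 2955 and 2645 CPM in celastrol replicates 1 and 3, where Fam102b was at 11.97, 13.5 and 12.3 CPM. For 14 of 15 lists, at least 2 of the 6 libraries without celastrol had a sum within the range of the celastrol libraries. Some of these ranges were wide. Those of choroid plexus, oligodendrocytes, and pericytes and smooth muscle took in all 6. The part of cell composition in the Fam102b values was not tested.

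The nearest tested coding genes on each side of the paralogs did not pass the test with celastrol against tMCAO. In that comparison edgeR called 0% of all genes tested, so this does not set the neighbours apart from other genes. Henmt1, which encodes a methyltransferase of small RNAs, ends 10222 bases before Fam102b in coordinates and had a log2 fold change of −0.35 ± 0.28 (SE) with celastrol against tMCAO, at 1.30 to 1.84 CPM in the group means. Slc25a24, a mitochondrial carrier of adenine nucleotides and phosphate, starts 95541 bases after it and had −0.39 ± 0.31 (SE). Neither passed the test (edgeR adjusted p = 0.976 each). The long non-coding gene Gm43221 lies within an intron of Fam102b on the other strand, from 109000024 to 109002094 on chromosome 3. Its group means were 0.18, 0.17 and 0.089 CPM in sham, tMCAO and celastrol, so the mean was lowest with celastrol, as for Fam102b. Its celastrol libraries, at 0.0595 to 0.106 CPM, lay within the range of the other libraries, 0 to 0.366 CPM, and it was too low to be tested. Beside Fam102a, Dpm2 (a subunit of an enzyme that makes a mannose donor, 1107 bases away) had 0.20 ± 0.16 (SE) and Naif1 (78378 bases away) 0.26 ± 0.19 (SE) with celastrol against tMCAO, and neither passed the test (edgeR adjusted p = 0.976 each).

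Of the relatives by domain, Ehbp1 was at 71.5 ± 6.33 CPM in sham, 74.4 ± 3.30 CPM after tMCAO and 71.4 ± 3.33 CPM with celastrol (SD, n = 3 each). Ehbp1l1 was at 21.5 ± 4.28, 21.3 ± 6.23 and 18.9 ± 0.23 CPM. Neither passed the test in any of these comparisons, where edgeR called at most 0.00589% of all genes tested. Their log2 fold changes with celastrol against tMCAO were −0.01 ± 0.10 and −0.13 ± 0.22 (SE).

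RANK signalling, the pathway in which Fam102a is known, was measured as 12 genes, of which 9 passed the filter. Of these, 0 passed the edgeR test in any comparison, beside at most 0.00589% of all genes tested. At an unadjusted p below 0.05 there were 3 of 9 for tMCAO against sham, beside 14.9% of all genes tested, 0 for celastrol against tMCAO, beside 4.11%, and 2 for celastrol against sham, beside 8.51%. DESeq2 called Btk and Plcg2 higher after tMCAO, where it called 4.92% of all genes in either direction, and Plcg2 higher with celastrol, where it called 2.24%, each against sham. Btk had a mean FPKM of 0.253 in sham, 0.779 after tMCAO and 0.608 with celastrol. It thus passed the filter through the occluded groups, where it was higher. Its call, and its place in the unadjusted counts against sham, are therefore not support. With so few genes, nothing particular to the list is read from these counts. RANKL (Tnfsf11), the ligand, was at 0 counts in the sham libraries and at most 0.892 CPM in any library, and was not tested. Its receptor RANK (Tnfrsf11a) was at 5.41 ± 0.64 CPM in sham, 7.93 ± 1.12 CPM after tMCAO and 7.57 ± 1.57 CPM with celastrol (SD, n = 3 each). The ubiquitin ligase Traf6, which binds the receptor, was at 25.7 ± 1.82, 33.1 ± 2.38 and 33.0 ± 6.70 CPM, and the adaptor Gab2 at 33.6 ± 2.70, 41.9 ± 11.7 and 38.0 ± 8.84 CPM. Plcg2, the phospholipase, was at 4.68 ± 0.72, 7.63 ± 1.27 and 8.37 ± 0.44 CPM. The median log2 fold change of the 9 genes was 0.47 for tMCAO against sham and −0.10 with celastrol against tMCAO, beside 0.01 and −0.00 over all genes tested. With celastrol against tMCAO their log2 fold changes ran from −0.35 to 0.31. Fam102b, at −2.13, was chosen by its celastrol values and was at position 31 of 16982, so the list is not measured against it.

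Estrogen receptors and targets were measured as 8 genes, of which 5 passed the filter. By edgeR 0 passed the test in any comparison, beside at most 0.00589% of all genes tested. At an unadjusted p below 0.05 there were also 0. Beside this stood 14.9% of all genes for tMCAO against sham, 4.11% for celastrol against tMCAO and 8.51% for celastrol against sham. DESeq2 also called 0, beside 4.92%, 0.112% and 2.24% of all genes in these comparisons. With so few genes, nothing particular to the list is read from these counts. The estrogen receptor genes Esr1 (2.54 to 14.2 CPM) and Esr2 (0.0662 to 1.09 CPM) were below the filter, as was the target Greb1. Igfbp4, a binding protein of insulin-like growth factors, was at 76.8 ± 11.4 CPM in sham, 133 ± 48.1 CPM after tMCAO and 126 ± 54.5 CPM with celastrol (SD, n = 3 each). The nuclear receptor corepressor Nrip1 was at 49.7 ± 0.90, 46.2 ± 12.6 and 52.9 ± 3.50 CPM. The stress transcription factor gene Xbp1 was at 31.3 ± 6.28, 35.3 ± 4.22 and 39.1 ± 1.40 CPM, and the progesterone receptor gene Pgr at 29.8 ± 4.58, 24.9 ± 1.55 and 34.3 ± 11.4 CPM. The median log2 fold change with celastrol against tMCAO was 0.19, with a range from −0.21 to 0.52.

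Genes were ranked by the Pearson r of their log2 CPM with each paralog over the 9 libraries, as a description. The 5 most like Fam102b were Arglu1 (r = 0.94), Npsr1 (0.92), Gm49863 (0.91), Crnkl1 (0.90) and Ptger1 (0.90). With each group's mean taken off, r was 0.46, 0.57, 0.88, 0.53 and 0.44, so for all but Gm49863 the likeness was mostly between groups. Npsr1, the neuropeptide S receptor, came nearest in size, at 4.13, 5.26 and 3.46 CPM in sham, 2.73, 3.29 and 7.16 CPM after tMCAO and 1.44, 1.32 and 1.77 CPM with celastrol. The log2 fold change of Npsr1 against tMCAO was −1.49. Its celastrol libraries lay below all others, as did those of Arglu1, Gm49863 and Ptger1 but not of Crnkl1. Ranking by likeness to a gene chosen by its celastrol values favours such a place. Arglu1, which encodes a regulator of transcription and splicing, moved far less, from 149 to 169 CPM without celastrol and from 126 to 140 CPM with it. The level of Ptger1, a prostaglandin E2 receptor gene, is uncertain, since whether reads were counted by strand is not known.

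The 5 most like Fam102a were Mir5125 (r = 0.97), Adra1d (0.95), Gm31749 (0.94), Mtag2 (0.93) and Ankrd29 (0.93). With the group means taken off, r was 0.96, 0.93, 0.89, 0.87 and 0.90. The alpha-1D adrenergic receptor gene Adra1d was at 14.6, 16.9 and 16.0 CPM in sham, 7.86, 12.01 and 6.64 CPM after tMCAO and 13.9, 17.7 and 21.1 CPM with celastrol, a wider swing than that of Fam102a. Mir5125, Gm31749 and Mtag2 were at or below 2.32 CPM and overlap more abundant genes (Srrm2, Kif22, and Ppfia3 with Lin7b), so their levels are uncertain.

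**Figure D4:**
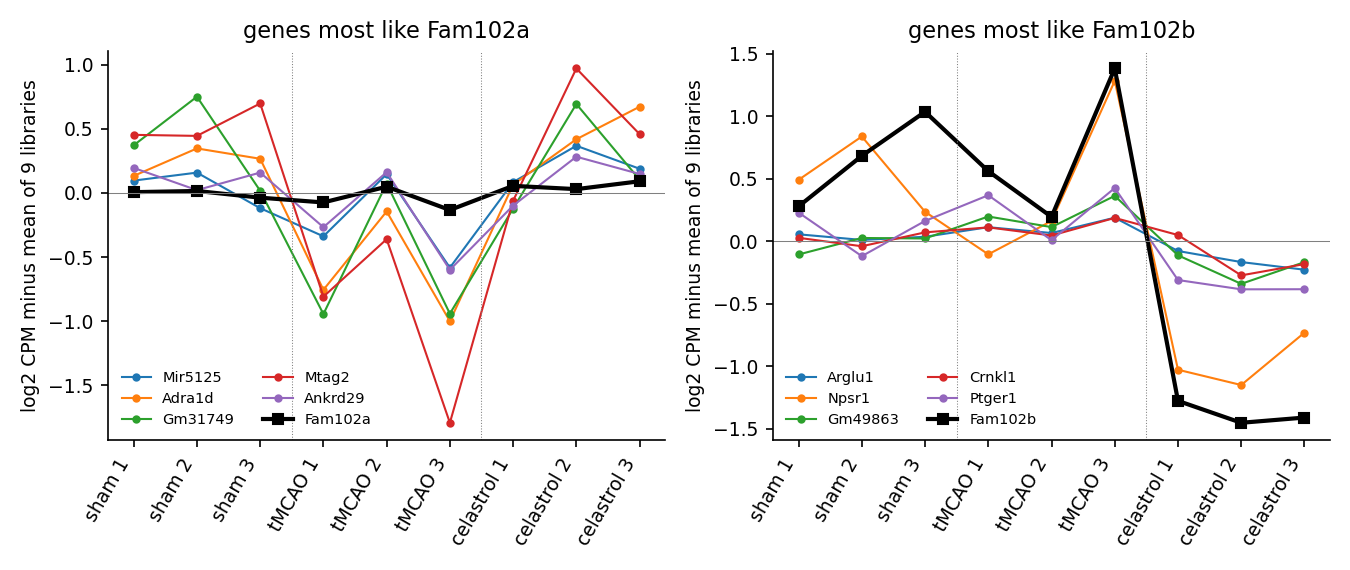
Log2 CPM minus the mean of the 9 libraries (y axis) for each paralog (black squares) and the 5 genes most like it (coloured circles), by library (x axis). Lines only join the points of a gene. Fam102b and Npsr1 drop well below their means in the 3 celastrol libraries, and Fam102a stays close to its mean while the genes most like it swing more widely.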

How the data were processed

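The authors deposited 1 table with an estimated count and an FPKM value for each gene in each library. The submitters' processing notes name HISAT2 2.0.4 and StringTie 1.3.4d, beside cutadapt 1.9, DESeq2 and edgeR, and the build mm10. Their settings and any use of strand: not given in the sources used here. All 18 value columns matched a library, and 0 rows named no gene. Deposited FPKM values of 0.0001 stood for a count of 0 in 99.99% of cases.

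The counts are whole numbers and were used as they stand. Genes were kept if 3 or more libraries reached an FPKM of 0.5. A single model with the 3 group means was fitted to the 9 libraries after TMM scaling (quasi-likelihood test of edgeR 4.0.16, R 4.3.3, two-sided, Benjamini-Hochberg over all genes, threshold 0.05). The SE was taken as log2 fold change over the root of the F statistic. The fit was tested on simulated data, whose dispersion between libraries was set below the common value of 0.0963 estimated here. That test thus does not show how often changes are missed in these data. For a symbol with several rows the row with the highest mean was used. Log2 CPM for likeness used a prior count of 2. DESeq2 1.42.0 and limma 3.58.1 on log2 FPKM were alternatives.

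The members, gene lists and tests were chosen with earlier results of these data known. Named genes are the members, their fixed lists (the 2 to 4 highest by mean CPM where none was called), the 5 most alike and the nearest tested coding genes.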

Additional observations from a re-analysis of the deposited data

How the results depend on the processing

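The log2 fold changes of the paralogs were judged by direction and side of the threshold for tMCAO against sham, and by a shift under 1 SD between replicates for the comparisons with celastrol. On these terms 69 of 72 held with 1 library left out, and 63 of 70 under the other alternatives. For Fam102b in tMCAO against sham the value with 1 library left out ran from −0.40 to 0.22, and with limma it was 0.0435 on log2(FPKM + 0.5), 0.0433 on log2(FPKM + 0.1) and 0.0434 on log2(FPKM + 1), never past the threshold. With celastrol, leaving out 1 library gave Fam102b −2.36 to −1.74 against tMCAO, −2.32 to −1.93 against sham and −2.25 to −1.94 against both. With limma on log2(FPKM + 1) these were −1.67, −1.63 and −1.65, and with log2(FPKM + 0.5) the value against sham was −1.81, since a pseudocount shrinks low values.

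Counts of called genes moved far more. DESeq2 called 557 genes higher and 279 lower for tMCAO against sham. With celastrol it called 12 and 7 against tMCAO, 314 and 66 against sham, and 56 and 17 against both. Among the fixed lists DESeq2 called 2 genes higher after tMCAO than in sham, Btk and Plcg2 (adjusted p = 0.0406 and 0.0360), and 1, Plcg2, higher with celastrol than in sham (adjusted p = 0.00361). Btk passed the filter through the occluded groups, so its call is not support. For celastrol against sham, genes called higher numbered 3 with no filter and 2 with an FPKM of at least 1, and limma on log2(FPKM + 0.1) gave 3. That limma fit also called 1 gene higher and 1 lower for tMCAO against sham. With only the groups compared in the fit 24 genes were called higher and 6 lower after tMCAO than in sham, and 3 higher and 1 lower with celastrol than in sham. The newer form of the quasi-likelihood fit, added after the data were seen, gave 2 and 6 higher in these comparisons. With 1 library left out, genes called higher ran from 0 to 80 and lower from 0 to 10 for tMCAO against sham. They ran from 0 to 2 higher for celastrol against tMCAO, from 0 to 41 higher and 0 to 2 lower against sham, and from 0 to 1 in each direction against both. The highest counts against sham came without celastrol replicate 2. With Spearman's rho in place of Pearson's r, 2 of the 5 genes most like each paralog were at or above the 5th highest rho. With ties, 8 genes had that place for Fam102a and 7 for Fam102b.

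Groups share replicate numbers. Same-numbered libraries had correlations of their deviations from −0.16 to 0.20, and differently numbered ones from −0.26 to 0.23. With 3 libraries a group, these values do not settle whether the numbers pair the libraries. With the replicate block, Fam102b had −0.04 in tMCAO against sham and −2.05 in celastrol against tMCAO, and Fam102a at −0.15 and 0.15. The block gave 48 genes higher and 3 lower after tMCAO than in sham. With celastrol it gave 21 higher and 1 lower against sham, and 1 higher against both. Why these counts moved was not tested.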
